A study of Mus musculus with 8 samples.

Results

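The aminoacyl-tRNA synthetase genes measured in mouse kidney tubuloids comprised 36 genes of the 24063 gene symbols in the deposited tables: 20 that encode the enzymes of the cytosol and 16 that encode the enzymes of the mitochondrion. The members were taken by gene symbol, and all 36 were found. The members were chosen by a measured value: the family was taken up because Lars, the cytosolic leucyl-tRNA synthetase, had been seen among the genes called different between DOX and DMSO in these same libraries, so every comparison of DOX with DMSO given here describes the members and stands as no independent test of them. Levels over all libraries, their order and the sequences of the promoters were not used to choose them. The likeness of members between libraries was not used either, but it contains the difference between DOX and DMSO except where group means were taken out. Levels given by group contain that difference too.

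The 8 libraries were poly-A RNA-seq libraries of tubuloids, cultures grown from primary kidney tubule fragments between layers of Matrigel. All cultures, controls included, carried Pkd2fl/fl, Pax8rtTA, TetOCre and the mTmG reporter, and came from mice labelled as postnatal day 7 to 10, although the methods of the study give an earlier age range for tubule preparation. In the DOX group, 4 libraries (DOX 9, 12, 19 and 21), doxycycline was given from culture day 3 for 3 days, which switches on Cre in Pax8-expressing tubule epithelium and deletes the floxed part of Pkd2, the gene of polycystin-2. In the DMSO group, 4 libraries (DMSO 3, 5, 15 and 20), the vehicle was given instead, and RNA of both groups was taken on culture day 7. For tubuloid cultures, the methods of the study describe plating with the growth factor GDNF, then medium without it. HGF, EGF and basic FGF were in the medium throughout. There was no group with doxycycline and no Cre, so the effect of the drug and that of recombination cannot be told apart. Recombination can only take place in cells that express Pax8, so other cells of the culture keep Pkd2. Nothing in the labels says that the libraries came from separate mice, and all tests measure the spread between these libraries. In bulk cultures, fewer cells of one type and less RNA per cell cannot be told apart.

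Summed counts ran from 63922677 to 102716313 per library. DMSO 20 and DOX 19 detected 13243 and 13599 genes, against 17054 to 17903 in the other 6 libraries, and of the genes with at least 100 counts in each of the 7 others, 388 (3.5%) were at 0 in DMSO 20 and 268 (2.46%) in DOX 19. No such gene was at 0 in any of the other 6 libraries. For the members they affect most, values are also given without these 2 libraries. Pkd2 itself had normalised counts of 4813 to 7538 in DMSO and 4136 to 5952 in DOX (log2 fold change -0.31, SE 0.21, adjusted p = 0.999 by DESeq2), so the targeted transcript was not separated between the groups. These counts cover the whole gene, and the floxed part was not counted apart. The study reported less polycystin-2 protein after doxycycline by western blot, which is a different measure. Summed TPM (a level scaled for transcript length and library depth) of 6 renal epithelial markers was 453 to 2041 in DMSO and 586 to 1356 in DOX, and that of 7 stromal markers was 260 to 2615 and 490 to 836. Aqp2, the water channel of the collecting duct, and Lrp2, Slc34a1 and Cubn of the proximal tubule stayed under 1 TPM in every library, as did the 3 endothelial markers, whereas Slc5a2, the other proximal tubule marker of the list, was at 5.17 to 23.7 TPM. The summed markers of collecting duct were 27.4 to 211 TPM in DMSO and 42.6 to 99.7 in DOX, and those of podocytes 3.47 to 22.6 and 5.66 to 156. No marker gene of any list separated the 2 groups, and the part of cell composition in the values given here was not tested.

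Aminoacyl-tRNA synthetases join each amino acid to its tRNA and so set which residue a codon is read as. Most cells carry one set for the cytosol and another, encoded in the nucleus and imported, for the mitochondrion. Several cytosolic enzymes are held in the multisynthetase complex, and the glycyl and lysyl enzymes of both compartments come from single genes, Gars and Kars. Genes of cytosolic synthetases are textbook targets of ATF4, a transcription factor that is translated when eIF2 is phosphorylated, for example when the kinase GCN2 senses uncharged tRNA.

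ATF4 pairs with C/EBP factors on a composite element whose core is often written TGATGNAA. This core was searched on both strands of the promoter windows in RefSeq (build GRCm38.p6, from 250 bases before to 50 after each start site). Of the 20 cytosolic members 13 had a window, and 5 of these, Aars, Gars, Iars, Tars and Yars, held the core (38.5%). None of the 14 mitochondrial members with a window held it. Over all genes with a window 4.51% (1219 of 27025) held it, over all 32851 windows 3.97% did, and in a list of ATF4 pathway genes the share was 32.3% (10 of 31). Cars, Hars, Lars, Nars, Rars, Vars, Wars, Hars2 and Pars2 had no window. The matches are shown because they lie in promoters of members that are described below. Each is printed 5′ to 3′ on the strand of the gene, with the core in capitals, which in every gene but Yars is read on the opposite strand.
Aars, chr8:111033704-111033763, + strand, core beginning 112 bases before the start: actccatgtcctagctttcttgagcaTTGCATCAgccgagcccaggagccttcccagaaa
Aars, chr8:111033840-111033869, + strand, core beginning 9 bases after the start: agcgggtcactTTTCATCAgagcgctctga
Gars, chr6:55037941-55038000, + strand, core beginning 30 bases before the start: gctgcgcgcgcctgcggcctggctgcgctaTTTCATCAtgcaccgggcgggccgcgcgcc
Iars, chr13:49682126-49682155, + strand, core beginning 7 bases after the start: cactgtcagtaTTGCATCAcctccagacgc
Tars, chr15:11399659-11399718, - strand, core beginning 15 bases before the start: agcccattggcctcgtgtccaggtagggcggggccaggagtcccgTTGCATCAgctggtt
Yars, chr4:129189895-129189924, + strand, core beginning 3 bases after the start: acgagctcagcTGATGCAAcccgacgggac
Aars was the one member with the core at 2 places. The start sites used for Aars and Yars lie inside the annotated spans of these genes (chr8:111027778-111055569 and chr4:129189734-129219240), not at their outer ends. A match describes letters in the window and is no measured binding site. The 5 members with the core had log2 fold changes of 0.64 to 0.82 between DOX and DMSO (median 0.80), the 8 without it had -0.09 to 1.03 (median 0.45), and the 7 cytosolic members with no window had 0.23 to 1.42 (median 0.70).

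In level the 2 classes differed in their medians but overlapped. Cytosolic members had a median of 90.2 TPM over the 8 libraries and mitochondrial members 16.6 TPM. TPM was summed over the listed transcripts of a gene. Of the 13 members with more than 1 transcript, 10 had near-equal counts (within 10%) on the 2 highest, so the sum may count the same reads more than once, which was not tested. With a single transcript per gene the class medians were 71.6 and 11.3 TPM. Nars, the asparaginyl enzyme, was the highest cytosolic member at 390 ± 137 TPM (mean ± SD, n = 8), and also with a single transcript (195 ± 68.5 TPM). Farsb, the beta subunit of the phenylalanyl enzyme, was next when its 4 transcripts were summed (254 ± 74.7 TPM), but with a single transcript it was at 66.7 TPM and Dars was next at 144 TPM. Hars, the histidyl enzyme, at 49.0 ± 10.5 TPM, and Lars, at 48.9 ± 20.4 TPM, each with 1 transcript, were the lowest by summed TPM, and Qars (34.3 TPM) lay below them with a single transcript. The ranges of all 19 pairs of neighbours in the summed cytosolic order overlapped between libraries, so the order is a ranking of means. It also differed between the groups: Lars had 32.1 TPM in DMSO, the lowest of its class, and 65.7 TPM in DOX, above Hars (54.6) and Farsa (50.6).

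Among mitochondrial members, Lars2, the leucyl enzyme, stood alone at 556 ± 390 TPM (109 to 1146), the highest mean of all 36. It was the one member of 15 neighbouring pairs whose range did not meet that of the next, Tars2, the threonyl enzyme, at 69.4 ± 16.1 TPM. Summed over 4 and 2 transcripts, Tars2 and Yars2 (51.3 TPM) had means above that of Lars, but with a single transcript they were at 19.3 and 25.3 TPM, and Lars2 was then the only mitochondrial member above the lowest cytosolic one. At the low end were Mars2, the methionyl enzyme, at 4.24 ± 1.65 TPM, and Wars2, the tryptophanyl enzyme, at 3.37 ± 1.51 TPM. Within 16 pairings of a mitochondrial enzyme with the cytosolic enzyme for the same amino acid, the cytosolic gene had the higher mean TPM in 15, Lars and Lars2 being the exception. With a single transcript per gene it was also 15 of 16, in DMSO alone and in DOX alone as well, while with summed TPM it was 13 of 16 in DMSO alone.

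**Figure D1:**
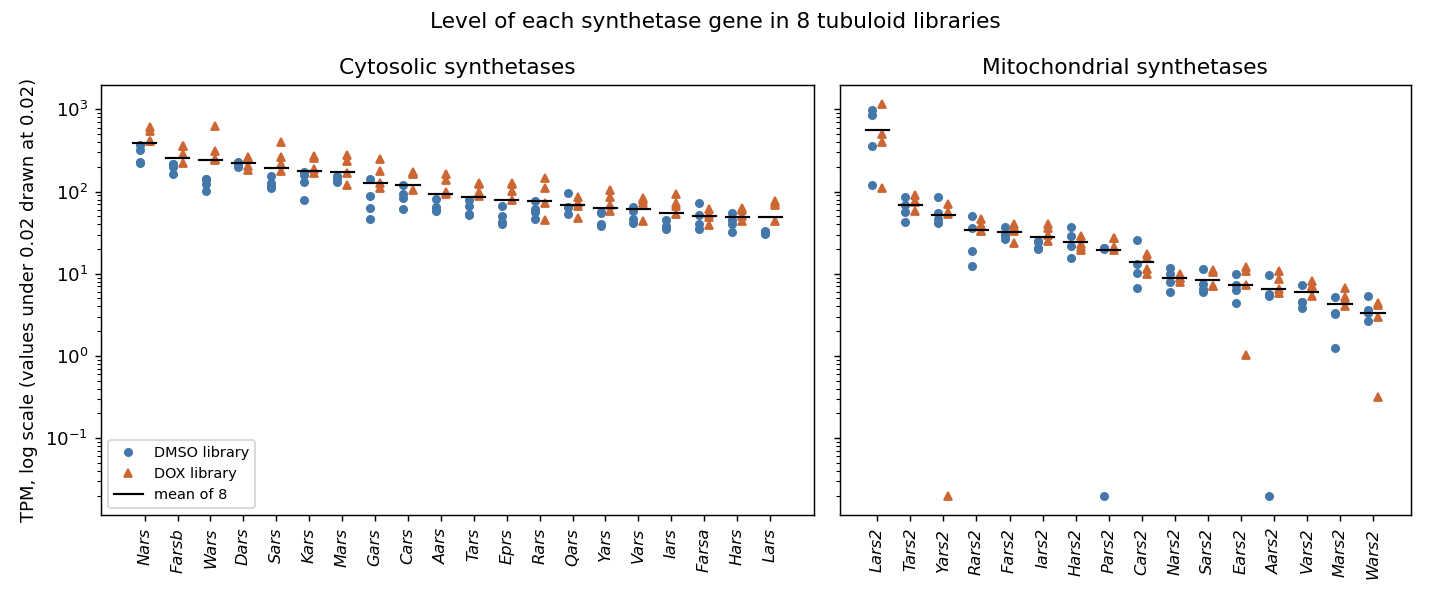
TPM of each synthetase gene on a log axis in 4 DMSO (circles) and 4 DOX (triangles) libraries, ordered by the mean of 8 libraries (line) within the cytosolic and the mitochondrial class. Cytosolic means run from 48.9 to 390 TPM, and Lars2, at 556 TPM, is the one mitochondrial gene that lies far above its class.

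The comparison of DOX with DMSO asks what changes in tubuloid RNA when Pkd2 is deleted. It was fitted over all genes by DESeq2, and calls needed a difference of 1.5-fold or more together with an adjusted p no higher than 0.05. Of 17011 genes tested 25 were called (0.147%), 14 of them higher with DOX (0.0823%). Among the 20 cytosolic members, Eprs and Lars were called, both higher with DOX, and none was called lower. No mitochondrial member was called. With the quasi-likelihood test of edgeR, 0 of 15562 genes were called (0%), no member among them, although 10 cytosolic members and 1 mitochondrial member had an unadjusted p under 0.05 (over all genes tested by edgeR, 476 or 3.06% did, and 243 or 1.56% in the higher direction, which was that of all 11 members). By DESeq2 the same numbers, 10 and 1, had an unadjusted p under 0.05, against 4.67% of all genes in either direction and 2.2% in the higher direction.

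By sign, 17 of 20 cytosolic members had a higher fitted level with DOX, and 11 were at least 1.5-fold higher. The median log2 fold change was 0.67, and it ranged from -0.09 for Qars, the glutaminyl enzyme, to 1.42 for Wars, with standard errors of 0.19 to 0.49. The other 2 below 0 were Dars, the aspartyl enzyme (-0.08), and Farsa, the alpha subunit of the phenylalanyl enzyme (-0.04). Of the 16 mitochondrial members 10 were above 0 and 6 below, with a median of 0.10 and a range from -0.45 for Yars2 to 0.60 for Mars2, and with standard errors of 0.20 to 1.31. Without the 2 low-detection libraries 8 of the 16 were above 0, and 6 had changed sign. Over all genes tested the median was -0.07 and 44.4% were above 0. In 8 cytosolic members and in no mitochondrial member, all 4 DOX libraries lay above all 4 DMSO libraries, an arrangement that 1.63% of 17633 genes showed (2.71% for separation in either direction), and in no member was the reverse seen.

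**Figure D2:**
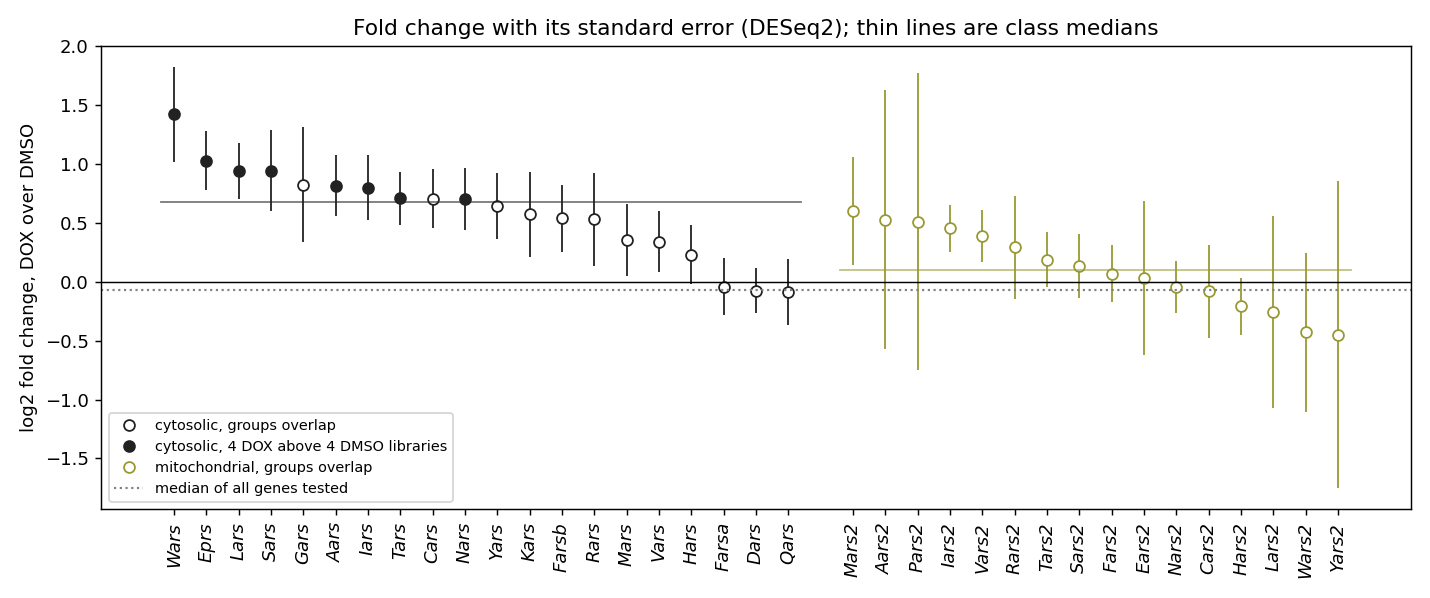
Log2 fold change of DOX over DMSO for each synthetase gene with its standard error from DESeq2, cytosolic members first. Filled points mark the 8 members whose groups did not overlap, thin lines mark the class medians of 0.67 and 0.10, and the dotted line marks the median of all genes tested, -0.07.

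Both called members belong to the multisynthetase complex. Eprs (chr1:185361417-185428360) encodes the bifunctional enzyme that charges tRNA with glutamate and with proline. Its normalised counts (counts divided by the size factor of the library) were 9167, 7583, 11716 and 12676 in DMSO 3, 5, 15 and 20, and 25282, 21192, 21319.8 and 16056 in DOX 9, 12, 19 and 21. The lowest DOX library stood above the highest DMSO library, with means of 10286 ± 2332 and 20962 ± 3782 (SD, n = 4). The fold was 2.04 (log2 1.03, SE 0.25, adjusted p = 0.0309 by DESeq2, 0.999 by edgeR).

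Lars, on chromosome 18, gave 5453, 4495, 6051 and 4827 normalised counts in DMSO 3, 5, 15 and 20. In DOX 9, 12, 19 and 21 it gave 12361, 9457, 11180.5 and 7019. DOX 21 was the closest to the controls and the groups did not overlap. The fold was 1.92 (log2 0.94, SE 0.24, adjusted p = 0.0474 by DESeq2, 0.999 by edgeR). Without the 2 low-detection libraries neither gene was called, with an adjusted p of 0.298 for Lars and 0.0625 for Eprs by DESeq2, while log2 fold changes were 0.87 and 1.15. Leaving out DMSO 3, DMSO 5, DOX 9, DOX 12 or DOX 19 alone also left 0 members called. Without DMSO 20 Eprs alone was called, and without DMSO 15 or DOX 21 both were.

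A further member of the complex, Iars, the isoleucyl enzyme, had 7406, 5693, 9536 and 6475 normalised counts in DMSO 3, 5, 15 and 20, and 17264, 11011, 12647 and 9714 in DOX 9, 12, 19 and 21. DOX 21 lay just above DMSO 15, and the log2 fold change of 0.80 (SE 0.28, adjusted p = 0.424 by DESeq2) was not called. Over the 8 members of the complex the median log2 fold change was 0.55, and over the 12 others 0.70. The 3 scaffold genes of the complex had values on both sides of the median of all genes: Aimp1 -0.03, Aimp2 -0.30 and Eef1e1 -0.11. By catalytic architecture, class I (9 members) and class II (10 members) both had a median of 0.64. These groupings were made after values were seen.

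Among the enzymes that act outside the complex, Wars, the tryptophanyl enzyme, which is also known as an interferon-induced gene, had the highest fold change of the family. Its normalised counts were 14252, 9100.2, 16396 and 13489 in DMSO 3, 5, 15 and 20, and 64839, 26454, 25829.9 and 25394 in DOX 9, 12, 19 and 21. All DOX libraries were above all DMSO libraries, but DOX 9 stood far above the other 3 DOX libraries, which lay within a narrow range. The log2 fold change of 1.42 (SE 0.40, adjusted p = 0.132 by DESeq2) was 0.96 without DOX 9.

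Sars, the seryl enzyme, had 21779, 15927, 27154 and 15629 normalised counts in DMSO 3, 5, 15 and 20. In DOX 9, 12, 19 and 21 it had 60889, 33061, 27864 and 32629, again highest in DOX 9 and with DOX 19 only slightly above DMSO 15. The log2 fold change was 0.94 (SE 0.34, adjusted p = 0.524 by DESeq2), and 0.63 without DOX 9.

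Aars, the alanyl enzyme, had 10410.5, 8028, 11449 and 11678 normalised counts in DMSO 3, 5, 15 and 20, and 25704, 17609.7, 15599 and 14276 in DOX 9, 12, 19 and 21. Tars, the threonyl enzyme, had 6674, 5118, 8236 and 8027 in the same DMSO libraries and 13419, 11692, 11088 and 9602 in the same DOX libraries. Both carry the TGATGNAA core in the windows shown above, and in both the groups did not overlap. Their log2 fold changes were 0.82 (SE 0.26) and 0.71 (SE 0.22), with an adjusted p of 0.280 and 0.273 by DESeq2.

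Nars, the most abundant cytosolic member, had 28090, 22629, 40033 and 38090.2 normalised counts in DMSO 3, 5, 15 and 20. In DOX 9, 12, 19 and 21 it had 66995, 50502, 47066 and 44975, so that the groups were separated by a narrow margin. The log2 fold change was 0.70 (SE 0.27, adjusted p = 0.572 by DESeq2).

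**Figure D3:**
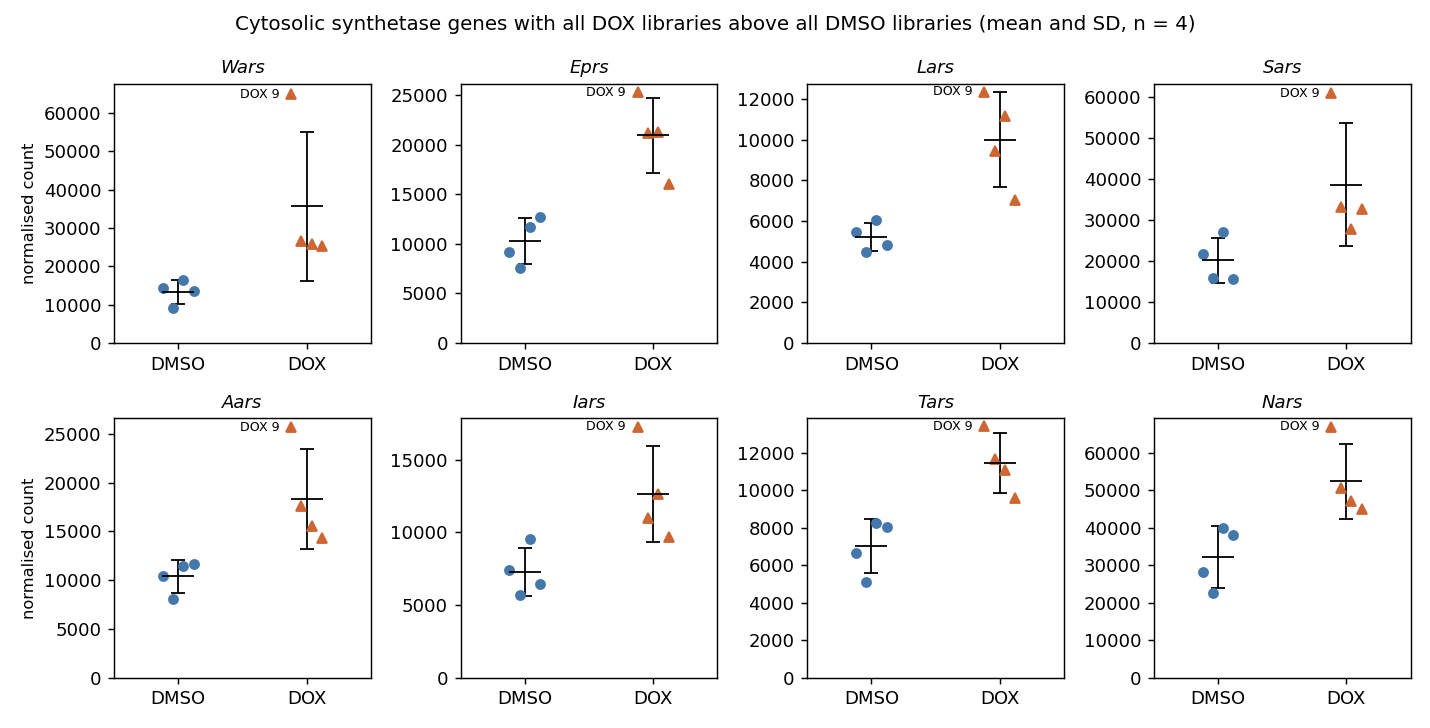
Normalised counts of the 8 cytosolic synthetase genes whose 4 DOX libraries (triangles) all lie above their 4 DMSO libraries (circles), with mean and SD (n = 4). DOX 9 is the highest library in each panel, and in Wars it stands at 64839 while the other 3 DOX libraries lie between 25394 and 26454.

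The remaining named cytosolic members overlapped between the groups. Gars, the glycyl enzyme of both compartments, had 9958, 5651, 16249 and 4298 normalised counts in DMSO 3, 5, 15 and 20, and 25137, 14673, 11337 and 12760.3 in DOX 9, 12, 19 and 21. DMSO 15 exceeded 3 of the 4 DOX libraries, and the log2 fold change of 0.82 carried the largest standard error of the class, 0.49 (adjusted p = 0.999 by DESeq2). It was 0.52 without DOX 9 and 1.27 without DMSO 15.

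Farsb had 20278, 13284, 22792 and 18588 normalised counts in DMSO and 33103, 21618, 33785 and 20292 in DOX, with libraries in the same order as before. DOX 9 and DOX 19 were high, and the other 2 DOX libraries lay among the controls (log2 fold change 0.54, SE 0.28, adjusted p = 0.976 by DESeq2). Its partner subunit Farsa had a log2 fold change of -0.04, so the genes of the 2 subunits of one enzyme had unlike fitted values. Hars had 3771, 2384, 4293 and 4311 in DMSO and 4989, 4359, 3738 and 4217 in DOX, a log2 fold change of 0.23 (SE 0.25, adjusted p = 0.999 by DESeq2) with overlapping groups. Cars, Kars, Mars, Rars, Vars and Yars, the cysteinyl, lysyl, methionyl, arginyl, valyl and tyrosyl enzymes, had log2 fold changes of 0.34 to 0.71, and their groups overlapped as well.

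The mitochondrial members gave smaller and less regular differences. Iars2, the isoleucyl enzyme, was the only member of its class with an unadjusted p under 0.05. Its normalised counts were 4096, 3296, 3361 and 2804 in DMSO 3, 5, 15 and 20, and 5375, 4926, 4521 and 3724 in DOX 9, 12, 19 and 21. DOX 21 lay below DMSO 3, and the log2 fold change was 0.45 (SE 0.20, adjusted p = 0.830 by DESeq2). Tars2 had 6701, 8034, 5139 and 6848 in DMSO and 9500.2, 6760.4, 8106 and 6043 in DOX, with a log2 fold change of 0.19 (SE 0.23).

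In the 3 mitochondrial members with the highest fitted values, DMSO 20 was the lowest library. Mars2 had 449, 558, 446 and 142 normalised counts in DMSO 3, 5, 15 and 20, and 580, 522, 827 and 491 in DOX 9, 12, 19 and 21, the lowest being DMSO 20 and the highest DOX 19. Aars2, the alanyl enzyme, had 1 count in DMSO 20 and 805 to 1539 normalised counts in the other 7 libraries. Pars2, the prolyl enzyme, had 0 counts in DMSO 20, which allows up to 3.84 normalised counts (3 counts, counting error only), and 1969 to 3055 elsewhere. With all 8 libraries the log2 fold changes of these 3 genes were 0.60 (SE 0.46), 0.53 (SE 1.10) and 0.51 (SE 1.26), and without the 2 low-detection libraries they were 0.15, -0.10 and -0.01. With limma-voom on all 8 libraries they were 0.61, 1.94 and 2.44, so the values of Aars2 and Pars2 depended on the method.

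In 2 members with negative fitted values, DOX 19 was the lowest library. Yars2, the tyrosyl enzyme, had 0 counts there, which allows up to 3.38 normalised counts, and 2561 to 4974 in the other 7 libraries, and its log2 fold change of -0.45 (SE 1.31) was the lowest of the family with all 8 libraries and -0.16 without the 2 low-detection libraries. Wars2 had 690.4, 592, 551 and 924 normalised counts in DMSO and 767, 675, 59 and 548 in DOX, the 59 being DOX 19. Its log2 fold change of -0.43 (SE 0.67) became 0.14 without the 2 low-detection libraries. The other 8 mitochondrial members, Cars2, Ears2, Fars2, Hars2, Nars2, Rars2, Sars2 and Vars2, had log2 fold changes of -0.21 to 0.39 with overlapping groups, and without the 2 low-detection libraries Rars2 (0.29), Sars2 (0.13) and Nars2 (-0.04) became -0.0015, -0.06 and 0.13. No cytosolic member had fewer than 10 counts in any library.

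**Figure D4:**
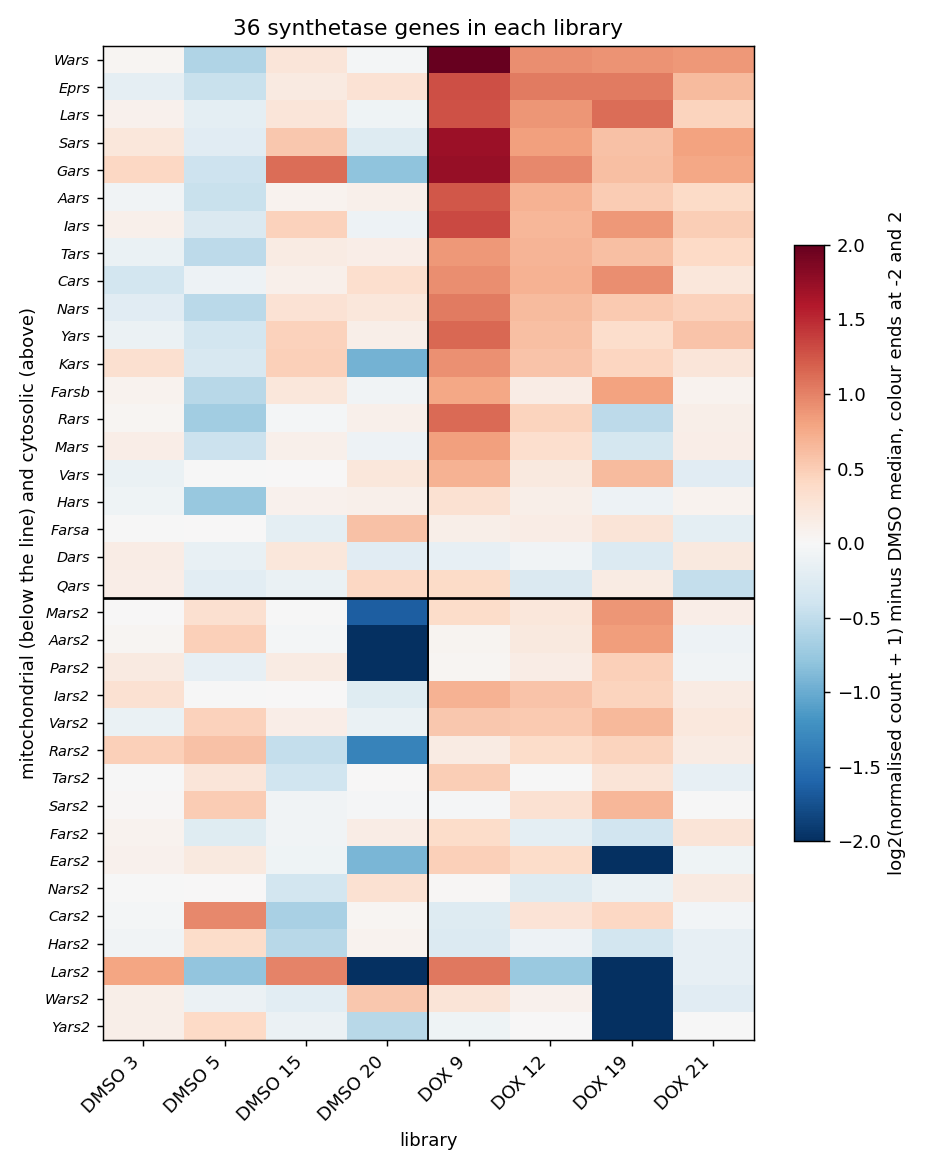
Log2(normalised count + 1) of each synthetase gene in each library, minus the median of the 4 DMSO libraries for that gene; red is higher, blue is lower, and colour is capped at -2 and 2. The DOX 9 column is red through most of the cytosolic block, whereas in the mitochondrial block the deepest blue cells are single genes of DMSO 20 and DOX 19.

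Set beside each other within each library, the classes differed in how far they separated the groups. The mean log2(normalised count + 1) over the 20 cytosolic members was 13.25, 12.87, 13.46 and 13.23 in DMSO 3, 5, 15 and 20, and 14.22, 13.74, 13.68 and 13.53 in DOX 9, 12, 19 and 21, a difference of 0.59 with no overlap. For the 16 mitochondrial members it was 10.997, 11.08, 10.77 and 9.27 in DMSO and 11.12, 10.99, 9.86 and 10.88 in DOX, a difference of 0.18 with overlapping groups. The low values of DMSO 20 and DOX 19 came with the members at or near 0 there, and over the 13 mitochondrial members with at least 10 counts in every library the difference was 0.06. The cytosolic mean minus the mitochondrial mean was 0.41 higher with DOX, 0.53 higher over members with at least 10 counts, and overlapped between groups in both cases. Without the 2 low-detection libraries it was 0.59 higher, and its leave-one-out range was 0.11 to 0.83. Summed TPM of the cytosolic members was 1765 to 2165 in DMSO and 2598 to 4279 in DOX, and that of the mitochondrial members without Lars2 was 231 to 417 and 275 to 398.

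By amino acid, the cytosolic enzyme had the higher log2 fold change in 14 of the 16 pairings. The widest difference was that of tryptophan (Wars 1.42, Wars2 -0.43), followed by leucine (Lars 0.94, Lars2 -0.26) and tyrosine (Yars 0.64, Yars2 -0.45). The exceptions were methionine (Mars 0.35, Mars2 0.60) and valine (Vars 0.34, Vars2 0.39). Several of these values turned on the low-detection libraries. Without both, the cytosolic enzyme had the higher value in 16 of 16 pairings, methionine (Mars 0.52, Mars2 0.15) and valine (Vars 0.33, Vars2 0.28) included. Tryptophan remained the widest (Wars 1.57, Wars2 0.14), and that of tyrosine narrowed (Yars 0.78, Yars2 -0.16). The pairings share libraries, and Eprs enters both for glutamate and for proline.

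The cytosolic members also varied together from library to library. DOX 9 was the highest library for 16 of the 20, and DMSO 5 was the lowest for 12. The median Pearson r of log2(normalised count + 1) over the 190 pairs of cytosolic members was 0.68 across the 8 libraries, against 0.12 over the 120 pairs of mitochondrial members and 0.05 over the 320 mixed pairs. After the group means were taken out, the medians were 0.56, 0.17 and -0.07. All pairs share the same 8 libraries and their scaling, and these values describe them with no test. The mitochondrial and mixed pairs include Aars2 (1 count in DMSO 20), Pars2 (0 in DMSO 20) and Yars2 (0 in DOX 19). The medians were not computed without these members or over all genes, so the part of low counts in the contrast was not tested. Aars followed the mean of the other cytosolic members most closely (r = 0.98, and 0.95 with group means out), and Wars (0.98) and Iars (0.97) came next. Dars (-0.14) and Farsa (-0.02) did not follow it. Of the mitochondrial members, Iars2 was the most like the cytosolic mean (0.80), but with group means out Lars2 (0.53) stood slightly above Iars2 (0.51). Hars2, the histidyl enzyme, ran against the cytosolic mean (-0.64 in both). Cars2 did so as well (-0.47, and -0.76 with group means out), and Sars2 was at -0.17 and -0.58.

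Lars2 had the largest SD of TPM among the members. Its normalised counts were 155397, 51805, 178470 and 18027 in DMSO 3, 5, 15 and 20, and 185704, 53546, 18158 and 79944 in DOX 9, 12, 19 and 21, with no separation of the groups (log2 fold change -0.26, SE 0.81, adjusted p = 0.999 by DESeq2). Rn45s, the precursor of ribosomal RNA, had 125017, 56645, 296830 and 20664 in DMSO and 121998, 18913, 21666 and 63299 in DOX, in the same order of libraries. The 2 moved together over the 8 libraries on a log2 scale (Pearson r = 0.89, exact permutation p = 0.00603; Spearman rho = 0.79, exact permutation p = 0.0279, two-sided). This pairing was 1 of 36 computed, 1 for each member, and the adjusted p was 0.217 and 0.503, so the relation did not pass the correction. Farsa ran against Rn45s (Pearson r = -0.71, Spearman rho = -0.81), with an adjusted p of 0.779 and 0.503 by the same permutation test. Without the 2 libraries farthest from the median of Rn45s, DMSO 15 and DOX 12, the r of Lars2 was 0.99, and without the 2 low-detection libraries it was 0.86. With 4 libraries in a group, no correlation within DMSO or within DOX was computed. Whether reads of ribosomal RNA are counted in Lars2 was not tested, so its place above every other member is uncertain.

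**Figure D5:**
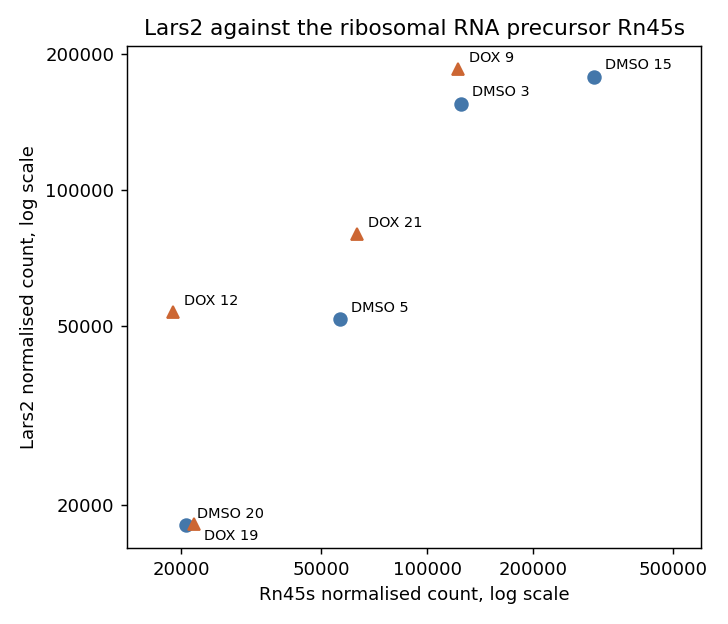
Normalised counts of Lars2 against those of Rn45s in each library, both on log axes, DMSO as circles and DOX as triangles. Libraries low in Rn45s, such as DMSO 20 and DOX 19, are lowest in Lars2, DOX 12 lies above the trend, and neither axis separates the groups.

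Other genes of tRNA charging, amidation, export and elongation lay evenly around 0. Of 22 listed symbols 21 were in the tables, and the missing symbol, Gatb, is a newer name of Pet112, which was found. Of the 21, 9 were above 0 and 12 below, and the median log2 fold change was -0.01. By DESeq2 or edgeR 0 were called, and by DESeq2 1 was higher and 1 lower at an unadjusted p under 0.05. Xpot, which exports tRNA from the nucleus, was the one whose groups did not overlap, with normalised counts of 5282, 3519, 6649 and 4257 in DMSO 3, 5, 15 and 20 and 12518, 8545, 7664 and 6773 in DOX 9, 12, 19 and 21 (log2 fold change 0.85, SE 0.31, adjusted p = 0.520 by DESeq2). Pstk, a kinase of selenocysteine tRNA charging, had 1910, 2249, 2451 and 3028 in DMSO and 1544, 1435, 1514 and 2154 in DOX (-0.54, SE 0.24), where DOX 21 alone lay among the controls. Qrsl1, a subunit of the mitochondrial amidotransferase that makes glutaminyl-tRNA, had 1031, 1181, 519 and 2163 in DMSO and 1015, 972, 792 and 813 in DOX (-0.45, SE 0.44), with overlapping groups.

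Genes of the ATF4 pathway, a list written from general knowledge with results of these data known, lay on the same side as the cytosolic members. Of 36 genes 31 were above 0, with a median log2 fold change of 0.68, 12 were higher (2.2% of all genes) and 0 lower at an unadjusted p under 0.05, and in 6 the 4 DOX libraries lay above the 4 DMSO libraries (1.63% of all genes). The mean log2(normalised count + 1) over the genes of the list with at least 10 counts in every library overlapped between the groups, with DMSO 15 at 12.30 above DOX 12 at 12.29 and DOX 19 at 12.20. By DESeq2 1 was called, Slc3a2, the heavy chain of several amino acid exchangers, with 24914, 20618, 22247 and 21082 normalised counts in DMSO 3, 5, 15 and 20 and 51058, 36792, 31157 and 39940 in DOX 9, 12, 19 and 21 (log2 fold change 0.84, SE 0.20, adjusted p = 0.0309 by DESeq2, 0.999 by edgeR). The groups were well apart, and DOX 9 was again the highest.

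Without DMSO 3, DMSO 5 or DOX 21, 0 genes of the list were called by DESeq2. In the 3 genes with the largest fold changes of that list, DOX 9 was far above the other libraries. Slc6a9, next in fold change (log2 1.57, adjusted p = 0.0686 by DESeq2), was highest in DOX 19 (8580), with DOX 9 at 4529. Trib3, a pseudokinase induced by ATF4, had 1399, 621, 1585 and 478 normalised counts in DMSO and 16408, 2649, 1923 and 3133 in DOX, in the same order of libraries (log2 fold change 2.56, SE 0.75, adjusted p = 0.182 by DESeq2). Slc7a3, a transporter of cationic amino acids, had 280, 112, 479.6 and 0 in DMSO and 5918, 1023, 33.8 and 826 in DOX, with overlapping groups (3.16, SE 1.47, adjusted p = 0.868 by DESeq2). Ddit3, the stress factor CHOP, had 2996, 2495, 3694 and 1749 in DMSO and 23322, 4535, 5302 and 4596 in DOX, and its log2 fold change of 1.79 (SE 0.61) got no p-value because Cook's distance marked an outlying count. The gene of Mars overlaps that of Ddit3 by 71 bases in the annotation, so reads there are of uncertain origin. Atf4 itself had a log2 fold change of 0.57 (SE 0.31, adjusted p = 0.986 by DESeq2).

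Of the eIF2 kinases and their partners, 12 of 13 listed symbols were in the tables, 8 were above 0 and 4 below, and the median log2 fold change was 0.11. None was called by DESeq2 or edgeR, and 0 had an unadjusted p under 0.05 by DESeq2. Eif2ak3, the kinase PERK, had 1629, 1243, 1645 and 876 normalised counts in DMSO 3, 5, 15 and 20 and 2527, 1488, 1842 and 1689 in DOX 9, 12, 19 and 21 (0.48, SE 0.30). Eif2b3, a subunit of the exchange factor, had 3486, 2796, 3691 and 4348 in DMSO and 5898, 5177, 3215 and 4693 in DOX (0.41, SE 0.26). Eif2s1, the phosphorylated subunit of eIF2, had 18710.5, 20427, 20986 and 26804.5 in DMSO and 15561, 16297, 14271.5 and 22339 in DOX (-0.34, SE 0.22). In all 3 the groups overlapped.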

How the data were processed

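Poly-A RNA of 8 tubuloid cultures, 4 DMSO and 4 DOX by their titles, was amplified with SMART-Seq v4, a kit that does not mark strand. Per the labels and the methods of the study, the authors aligned reads to GRCm38 (mm10) with STAR and counted them with featureCounts; tool versions and counting settings are not given in the sources used here. The deposited files hold, for 33068 transcripts, a raw count, an FPKM and a TPM value per library. FPKM as deposited by the authors was used in no result. The counts were summed by gene symbol (24063 symbols), which may count a read once for each transcript that shares it, and tested with DESeq2 1.42.0 (Wald test, independent filtering at alpha 0.1, Cook's filter, Benjamini-Hochberg over all genes). The study's limits were kept: an adjusted p of at most 0.05 and at least 1.5-fold. edgeR 4.0.16 (quasi-likelihood) was run beside it. Normalised counts are counts divided by DESeq2's size factors, and 1 was added before logs. The deposited TPM was summed by symbol to compare levels between genes.

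The members and all lists were chosen with earlier results of these data known. Per-library values are given for Lars, for members whose groups do not overlap, and for the 6 cytosolic and 4 mitochondrial members with the largest absolute log2 fold change. They are also given for the 2 highest and 2 lowest of each class by TPM. In each other list they are given for the 3 genes of largest change with a mean normalised count of at least 100. Values of Slc3a2, Atf4, Slc6a9 and other members were added after they were seen. The code was tested on simulated counts. Alternatives were limma-voom (limma 3.58.1), TMM scaling, a filter of at least 10 counts in every library, no Cook's filter, 1 transcript per gene, a sex covariate (1 male library in each group) and leaving out libraries; values of unnamed members and pairings without both low-detection libraries, levels within each group and levels of each member with 1 transcript were added after seeing the data. All 36 members matched RefSeq by accession. Without strand, reads shared with overlapping genes are uncertain: Aars with Ddx19b, Farsb with Sgpp2, Iars2 with Rab3gap2, Mars with Ddit3 and Lars2 with Gm46137.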

Additional observations from a re-analysis of the deposited data

Results flagged for a closer look

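In 72 sets of 4 libraries (36 members in 2 groups), 8 had a highest or lowest library whose gap to its neighbour, divided by the range of the group, was beyond Dixon's 95% limit for 4 values. Chance flags about 1 in 20 such sets, here 3.6. Low values in the 2 libraries that detected the fewest genes made up 6 of the 8. In DMSO 20 these were Aars2 (0.943), Mars2 (0.836) and Pars2 (0.969). In DOX 19 they were Ears2 (0.83), Wars2 (0.868) and Yars2 (0.992). The others were high values, Wars in DOX 9 (0.956) and Sars2 in DMSO 5 (0.831). Wars was thus the one cytosolic member with such a library.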

How the results depend on the processing

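No paired analysis was possible because the replicate numbers in the titles are not shared between DMSO and DOX. The planned search of protein signatures was not run. Of 302 refitted values of 19 genes (the named members and Pkd2), 276 kept their direction and side of the threshold, 20 (all Eprs or Lars) were no longer called and 6 changed sign. Cytosolic members above 0 numbered 17 to 19 of 20 in every setting.

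DESeq2 called 25 genes over all genes. The total was 0 with edgeR and with limma-voom, 16 with the filter of 10 counts, 48 without Cook's filter, 43 with the sex covariate and 51 without both low-detection libraries. The 2 cytosolic calls became 0 by edgeR, limma-voom and without both low-detection libraries, and 1 (Eprs) with TMM scaling, the filter and the sex covariate. The single ATF4 pathway call became 0 by edgeR and limma-voom, 2 without Cook's filter and with 1 transcript per gene, and 3 without both low-detection libraries. The median TPM of mitochondrial members was 11.3 with 1 transcript per gene. The causes were not tested. Without both low-detection libraries Aars2 (-0.10), Pars2 (-0.0077) and Wars2 (0.14) changed sign, and so did Lars2 without DMSO 3 (0.029), DMSO 15 (0.17) or DOX 19 (0.085), which ranged from -0.997 to 0.17 when single libraries were left out.

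Leaving out 1 library at a time gave 14 (without DMSO 3) to 75 (without DMSO 15) genes called over all genes, 0 to 2 cytosolic members, 0 mitochondrial members and 0 to 5 ATF4 pathway genes. The median log2 fold change was 0.49 to 0.79 for cytosolic and 0.04 to 0.29 for mitochondrial members, and their difference 0.26 to 0.71. The difference between groups in the mean log2 normalised count was 0.45 to 0.68 for cytosolic and -0.24 to 0.47 for mitochondrial members.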
